A study of Mus musculus with 40 samples.

Results

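Iron handling in thigh skeletal muscle was described through 7 genes: the transferrin receptor gene Tfrc, the iron transporter gene Slc11a2, the iron exporter gene Slc40a1, the ferritin genes Fth1 and Ftl1, and the genes of both iron regulatory proteins, Aco1 and Ireb2. The members were chosen by gene symbol, and 9 of the 25697 probes on the array carried 1 of these symbols, of which 2 were for Tfrc and 2 for Fth1. The choice was made with results from the diet groups of these animals known. The diet differences of the 7 genes are therefore given as a description, with an error and an interval but without a p-value, and a count of members past the threshold is printed only beside the count over all probes.

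Most cells take up iron as transferrin bound to the transferrin receptor at the cell surface. The complex is internalized, iron is released in endosomes and crosses into the cytosol, and it is then built into heme and iron-sulfur clusters, stored in ferritin or exported through ferroportin. When iron is scarce in the cell, the iron regulatory proteins bind stem-loops in the messenger RNAs of these genes, which stabilizes the Tfrc transcript and blocks translation of the ferritin transcripts. Skeletal muscle holds much of its iron in myoglobin and in the respiratory chain.

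The samples were total RNA of thigh muscle from 40 male C57BL\6 mice (C57BL/6J in the study's methods) killed at 9 weeks of age, each hybridized to 1 Illumina MouseRef-8 v2.0 beadchip array. Dams received a low fat (LF) or high fat (HF) diet before mating, through pregnancy and until weaning, and their sons then received either diet. The 4 groups of 10 animals were LF_LF, LF_HF, HF_LF and HF_HF, named by the diet of the dam and then that of the son, and the labels name no transgene or mutation. The animals came from 12 cages, with 4 or 5 cages per group, so that the 10 animals of a group were not 10 independent litters. All values are quantile-normalized probe intensities on a linear scale from 47.2 to 32250.5, with a median between 75.7 and 75.8 on each array, and no background had been subtracted to 0. The number of arrays limits the precision of a group mean.

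All 7 skeletal muscle markers on the array, among them Ckm and Acta1, lay above the median of their array in all 40 arrays. Of the markers of other cells, 10 of 10 macrophage and 7 of 8 endothelial markers on the array, but 1 of 6 erythroid, 3 of 6 adipocyte and 0 of 8 lymphocyte markers, lay above the median in 20 arrays or more. LF_LF replicates 2 and 5 stood apart with lymphocyte marker scores of 1.27 and 1.54, and LF_HF replicate 6 with a macrophage score of 1.36, where a score is the mean log2 deviation of the markers from their mean over all arrays. The same LF_LF arrays had the highest adipocyte scores, 2.33 and 2.26, followed by HF_LF replicate 2 and HF_HF replicate 1 at 1.64 and 1.63. The dim probes split the arrays into a set of 17 and a set of 23, which held 2 and 8 LF_LF, 4 and 6 LF_HF, 6 and 4 HF_LF, and 5 and 5 HF_HF arrays. Whether these sets were scanned or processed apart is not given in the sources used here.

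Tfrc encodes the receptor that brings transferrin-bound iron into the cell. Both Tfrc probes were highest in LF_HF muscle, the HF-fed sons of LF dams, while the remaining 3 groups lay close together. Probe 1 (ILMN_2860804) ran from 1413.8 to 2065.9 with a median of 1812.6 in LF_HF, against 1135.5 to 1534.1 with a median of 1320.7 in LF_LF. The HF_LF arrays ran from 989.3 to 1634.9 around a median of 1307.5, and HF_HF spread from 847.0 to 1681.3 around a median of 1229.4. Every LF_HF array lay above the LF_LF mean of 1318 ± 140 (SD, n = 10), and 7 of the 10 lay above the highest LF_LF array, so that the groups overlapped in the lower LF_HF arrays. In bulk muscle RNA, more cells of a type and more RNA per cell cannot be told apart.

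Probe 2 (ILMN_2619848) gave the same order for LF_HF against the rest. It ran from 1309.7 to 2138.0 with a median of 1581.6 in LF_HF and from 993.3 to 1510.8 with a median of 1204.6 in LF_LF. The HF_LF arrays spanned 947.3 to 1460.4 around a median of 1187.7, and the HF_HF arrays 845.3 to 1505.1 around a median of 1191.0. All 10 LF_HF arrays again exceeded the LF_LF mean, and 6 exceeded the highest LF_LF array.

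**Figure D1:**
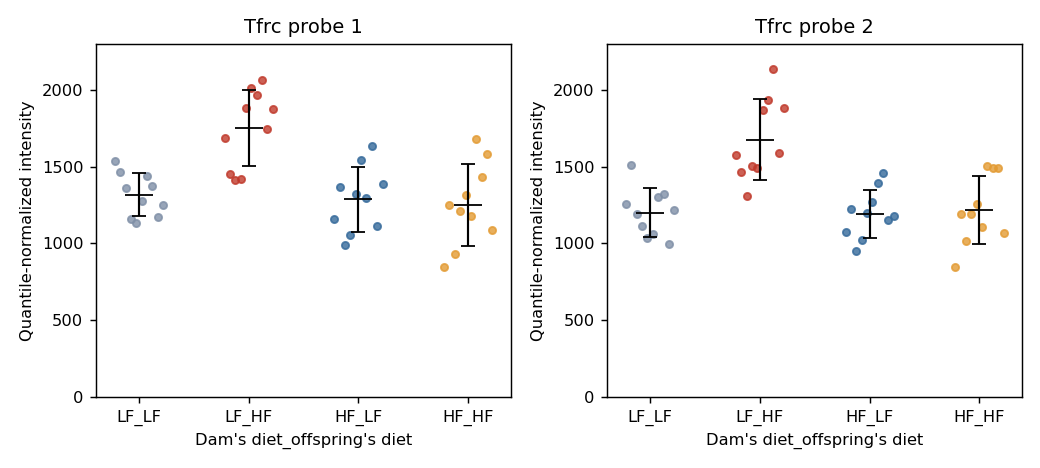
Quantile-normalized intensity (y axis, linear) of both Tfrc probes in each of the 10 arrays of the 4 groups (x axis, dam's diet first); points are arrays, bars show the mean and SD. The LF_HF arrays sit between 1413.8 and 2065.9 for probe 1 and between 1309.7 and 2138.0 for probe 2, with means above those of the other 3 groups.

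Across the 40 arrays the 2 probes followed each other. After subtraction of each group's mean, so that the diet groups played no part, they correlated with Pearson's r = 0.886 and Spearman's rho = 0.881 (n = 40; permutation test within groups, two-sided, adjusted p = 7e-05 for both over 7 relations, from the smallest p that 100000 permutations can give). Without the 2 arrays farthest from the median of probe 1, r was 0.856. The probes read transcripts of 1 gene from the same RNA, so they do not count as separate evidence for a group difference.

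The stretch of chromosome 16 around the more upstream of the Tfrc start sites annotated by RefSeq (build GRCm38.p6, chr16:32608646-32608914, plus strand) is shown because Tfrc was the member that stood apart between the groups. It holds the 250 bases before the start and 19 bases after it. Capitals mark matches to ACGTG, the core of the hypoxia response element, and to TGACGT, the opening of the cAMP response element, searched on both strands.
Tfrc: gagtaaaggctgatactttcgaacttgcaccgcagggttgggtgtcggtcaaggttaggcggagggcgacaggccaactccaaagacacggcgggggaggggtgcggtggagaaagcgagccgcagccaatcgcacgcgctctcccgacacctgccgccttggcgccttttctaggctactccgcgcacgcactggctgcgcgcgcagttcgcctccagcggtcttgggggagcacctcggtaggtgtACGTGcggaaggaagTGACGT
The matches begin at bases 249 and 264 of this run. The run was cut at the end of the second match, so the bases that follow TGACGT are not shown. The motifs share the letters ACGT but the matches do not overlap. Among 32851 promoter windows of 300 bases, 19.6% held ACGTG and 7.51% held TGACGT. Of the 5 members with a window (7 windows in all), Tfrc had both motifs, and Fth1, Ftl1, Aco1 and Ireb2 had neither. The Tfrc windows overlap, and the matches shown lie in the stretch they share, so they are the same sites in each window. A match is a run of letters and was not tested for binding of any factor.

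The comparisons by pairs of groups addressed the son's diet at each dam's diet and the dam's diet at each son's diet. In sons of LF dams, Tfrc was higher with HF feeding by 0.41 ± 0.08 (log2 difference ± SE, 95% interval 0.24 to 0.57) at probe 1, a fold of 1.32, and by 0.48 ± 0.09 (0.30 to 0.65) at probe 2, a fold of 1.39. In sons of HF dams the same comparison gave -0.05 ± 0.11 (-0.29 to 0.18) at probe 1 and 0.02 ± 0.10 (-0.19 to 0.22) at probe 2. The high level with HF feeding was thus seen in the sons of LF dams, while in the sons of HF dams the difference was smaller than its error.

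Compared by the dam's diet, the HF-fed sons lay apart and the LF-fed sons lay within the spread. HF_HF minus LF_HF was -0.50 ± 0.11 (-0.73 to -0.28) at probe 1 and -0.47 ± 0.10 (-0.68 to -0.26) at probe 2, and all 10 HF_HF arrays lay under the LF_HF mean at both probes. HF_LF minus LF_LF was -0.04 ± 0.08 (-0.22 to 0.13) and -0.01 ± 0.08 (-0.18 to 0.16). These comparisons share groups with those by the son's diet and are not separate evidence. The dam's diet was the same for all animals of a cage, and each group came from 4 or 5 cages. The errors and intervals count animals and not cages, so they may be too narrow for a difference by the dam's diet. The interaction, the HF feeding difference in sons of HF dams minus that in sons of LF dams, was -0.46 ± 0.14 (-0.75 to -0.17) at probe 1 and -0.46 ± 0.13 (-0.73 to -0.19) at probe 2. LF_HF thus came first in order of level at both probes, and the order of the other 3 groups was not the same at the 2 probes and lay within the spread of the arrays, whose pooled SD was 0.24 and 0.22 on the log2 scale.

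**Figure D2:**
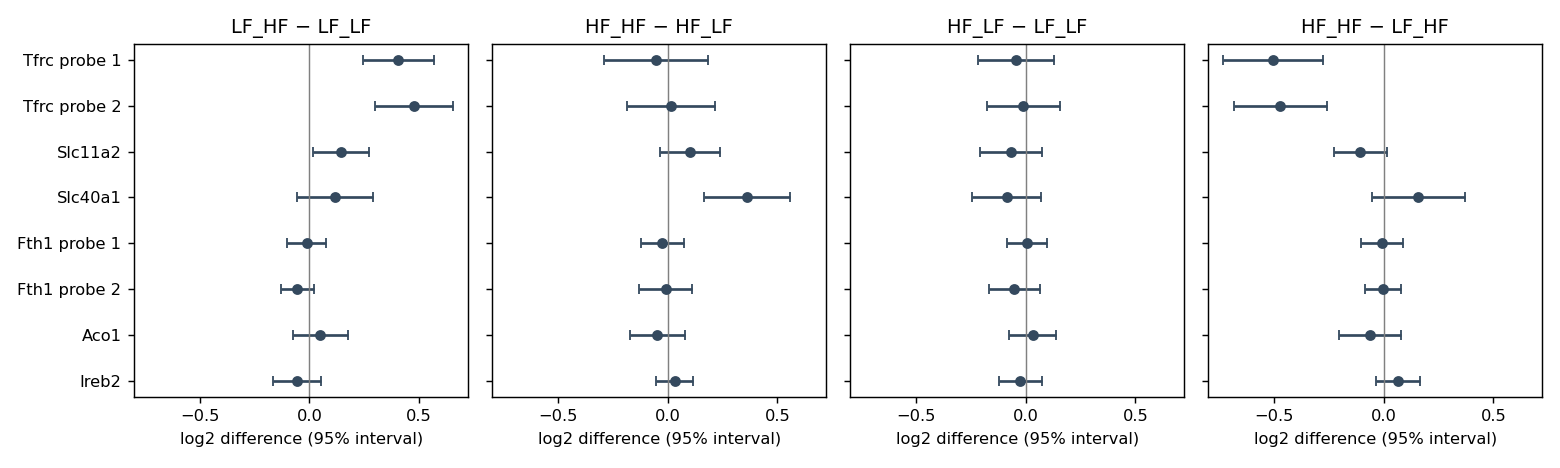
Log2 difference (x axis, first group minus second) with its 95% interval for the 8 tested probes (y axis) in the 4 comparisons of groups of 10 arrays. Both Tfrc intervals lie above 0 in LF_HF minus LF_LF and below 0 in HF_HF minus LF_HF, and the Slc40a1 interval lies above 0 in HF_HF minus HF_LF.

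Over all probes the comparisons differed in how much they called. Calls were made with limma where the Benjamini-Hochberg adjusted p over the 12467 tested probes was under 0.05. In LF_HF minus LF_LF, 521 probes (4.18%) were called, and 2 of the 8 tested member probes, both for Tfrc, were among them. Neither Tfrc probe was called without cage 11. In HF_HF minus HF_LF 45 probes (0.361%) and 0 of the 8 were called, and in HF_LF minus LF_LF 2 probes (0.016%) and 0 of the 8. In HF_HF minus LF_HF 0 probes (0.0%) were called, although 903 had an unadjusted p below 0.05, and in the interaction 0 (0.0%), with 647 at an unadjusted p below 0.05. When all 40 arrays shared 1 fit, 5 probes were called in HF_HF minus LF_HF, both Tfrc probes among them. In HF_HF minus HF_LF that fit called 85 probes, Slc40a1 among them. Slc40a1 was also called in HF_HF minus HF_LF without cage 20. The members were chosen with these contrasts known, so nothing is read from the counts of members.

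Cagemates on different diets gave a comparison within a cage. In cages 4 and 11 of LF dams, every HF-fed son had more Tfrc signal than each of his LF-fed cagemates. The share of all tested probes that separated cagemates in this way was not counted. Tfrc was also chosen with results of these groups known, so the cages are a description and not separate evidence. In cage 11 the HF-fed sons averaged 1897 and the LF-fed sons 1210 at probe 1 (3 and 2 animals), and in cage 4 they averaged 1418 and 1192 (2 and 3 animals). The same held at probe 2, with means of 1870 and 1106 in cage 11 and of 1407 and 1070 in cage 4. In the 3 mixed cages of HF dams the HF-fed sons had the lower mean, with a log2 ratio at probe 1 of -0.58 in cage 10, -0.23 in cage 20 and -0.30 in cage 23, and at probe 2 of -0.45, -0.18 and -0.18. Cage 10 held only 1 HF-fed son and cage 20 only 1 LF-fed son, and the son in cage 10 was the lowest of the 40 arrays. Restricted to mixed cages and with cage as a term, HF feeding gave 0.45 and 0.57 in sons of LF dams and -0.35 and -0.25 in sons of HF dams.

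**Figure D3:**
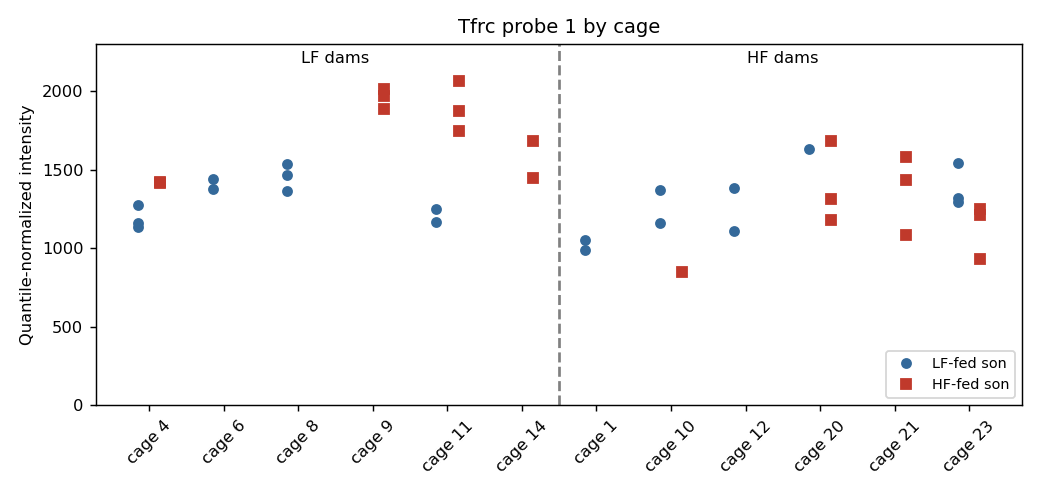
Quantile-normalized intensity of Tfrc probe 1 (y axis) by cage (x axis), with cages of LF dams left of the dashed line and cages of HF dams right of it; circles are LF-fed and squares HF-fed sons. In cages 4 and 11 the HF-fed sons lie above their LF-fed cagemates, and in cages 10, 20 and 23 the mean of the HF-fed sons is below that of the LF-fed sons.

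Without cage 11, the cage with the widest gap between diets, the LF_HF minus LF_LF differences of Tfrc were 0.32 and 0.38. The slow fiber score, the mean of 9 of 9 slow fiber markers, also differed between the groups, from -0.34 to 1.44 with a median of 0.82 in LF_HF and from -1.51 to 1.34 with a median of -0.62 in LF_LF. With this score as a covariate the Tfrc differences were 0.35 and 0.45. The endothelial score (7 of 8 markers above the array median in 20 arrays or more) ran from -0.15 to 0.19 with a median of 0.10 in LF_HF and from -0.21 to -0.005 with a median of -0.11 in LF_LF. The adipocyte score (3 of 6 markers, Adipoq, Lep and Cidec) ran from -1.27 to 0.66 with a mean of -0.43 in LF_HF and from -0.57 to 2.33 with a mean of 0.38 in LF_LF. The part of the endothelial and adipocyte scores in the Tfrc difference was not tested. Within the set of 17 arrays the differences were 0.28 and 0.59 and within the set of 23 they were 0.45 and 0.42.

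Slc11a2 encodes DMT1, the transporter that moves iron out of the endosome. Its probe (ILMN_2665063) lay between 116.6 and 205.8 in the 40 arrays. It ran from 136.4 to 189.2 with a median of 149.3 in LF_LF and from 146.0 to 205.8 with a median of 170.6 in LF_HF. In HF_LF it ran from 116.6 to 168.4 (median 147.6) and in HF_HF from 135.7 to 175.0 (median 160.4), so that all 4 groups overlapped. LF_HF was higher than LF_LF by 0.14 ± 0.06 (0.02 to 0.27), with 9 of 10 arrays above the LF_LF mean. HF_HF minus HF_LF was 0.10 ± 0.07 (-0.03 to 0.24). Slc11a2 was the only one of the 8 tested member probes called between the array sets, with a set of 23 minus set of 17 difference of -0.12 ± 0.04 and the diet groups in the model (limma, adjusted p = 0.0314), where 28.1% of all tested probes were called.

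Slc40a1 encodes ferroportin, the exporter of iron from cells, and is abundant in macrophages. Its highest group was HF_HF rather than LF_HF. The probe (ILMN_2747923) ran from 901.2 to 1579.2 with a median of 1228.9 in HF_HF and from 775.9 to 1154.7 with a median of 954.8 in HF_LF. It ran from 855.5 to 1172.9 (median 997.1) in LF_LF and from 852.3 to 1372.8 (median 1051.9) in LF_HF. Of the HF_HF arrays, 9 of 10 lay above the HF_LF mean and 6 above the highest HF_LF array. HF_HF minus HF_LF was 0.36 ± 0.09 (0.17 to 0.56), a fold of 1.28. It lay between 0.198 and 0.513 under the alternative settings and between 0.275 and 0.489 with 1 animal or cage left out. The highest leave-out value was without cage 20, where the HF-fed sons averaged 1039.7 and the 1 LF-fed son had 1154.7. LF_HF minus LF_LF was 0.12 ± 0.08 (-0.06 to 0.29). The interaction was 0.25 ± 0.13 (-0.02 to 0.51), so that its interval included 0.

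Within the diet groups, Slc40a1 rose with the score of the endothelial markers (7 of 8 tested). Its log2 intensity changed by 1.04 ± 0.25 per unit of score (95% interval 0.53 to 1.55; limma on all 40 arrays with group in the model, adjusted p = 0.0134), against 5.53% of all tested probes called in that fit. The score itself ran from -0.15 to 0.36 (mean 0.06) in HF_HF and from -0.16 to 0.25 (mean -0.04) in HF_LF, and its part in the group difference of Slc40a1 was not tested. Slc40a1 was not called against the macrophage score (0.16 ± 0.11 per unit, adjusted p = 0.453).

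Fth1 encodes the heavy chain of ferritin, which oxidizes iron for storage. Both Fth1 probes were among the brightest of the array, at ranks between 2 and 17 for probe 1 (ILMN_2876066) and between 16 and 43 for probe 2 (ILMN_2876071). Quantile normalization gives each rank the same value on every array, and the 40 arrays shared only 14 distinct values at each probe. Among LF-fed sons the median of probe 1 was 27513 (LF dams) and 27736 (HF dams), and among HF-fed sons it was 27299 and 27043, within a range of 24533.6 to 31356.8. For probe 2 these medians were 22842, 22434, 22245 and 21847. At both probes the groups overlapped almost fully, the differences in the 4 comparisons lay between -0.06 and 0.00 on the log2 scale, and every 95% interval included 0 and lay between -0.17 and 0.11. Near-identical copies of ferritin genes occur in the mouse genome, so that these probes could bind transcripts of more than 1 locus.

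Ftl1 encodes the light chain of ferritin. Its only probe (ILMN_2816707) lay between 55.3 and 70.1, under the median of its array in all 40 arrays, so that it was not tested and is not well above background. Its mean was 63.5 and 63.9 in LF-fed sons of LF and HF dams and 61.4 and 61.7 in HF-fed sons.

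Aco1 and Ireb2 encode the iron regulatory proteins that bind the stem-loops of Tfrc and ferritin transcripts. Both were dim. Aco1 (ILMN_1216382) ran from 71.4 to 107.6, above the array median in 39 of 40 arrays, with group means from 86.0 in HF_HF to 89.9 in LF_HF. Its differences lay between -0.06 and 0.05, with intervals between -0.20 and 0.17. Ireb2 (ILMN_3161612) ran from 91.7 to 123.1, with group means from 106.8 in LF_HF to 111.6 in HF_HF. Its differences lay between -0.06 and 0.07, with intervals between -0.17 and 0.17. The groups overlapped for both genes, and near background a true difference appears smaller on this scale.

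**Figure D4:**
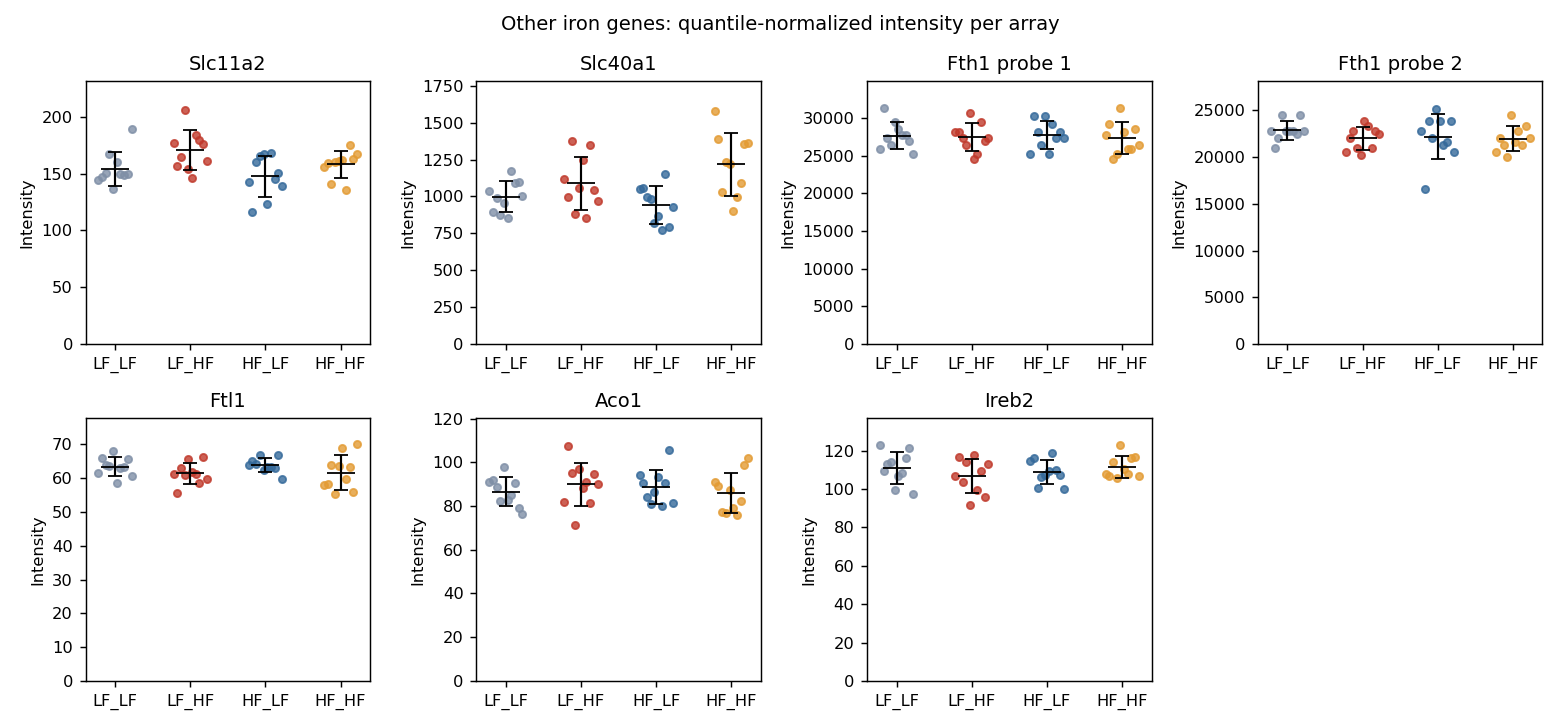
Quantile-normalized intensity (y axes, linear and starting at 0, each probe on its own scale) of the other 7 member probes in each of the 10 arrays of the 4 groups (x axes); bars show the mean and SD. The groups overlap at every probe, and the HF_HF arrays of Slc40a1 reach 1579.2 against 1154.7 in HF_LF.

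From animal to animal within the groups, no correlation of Tfrc probe 1 with another gene among the members passed the test, and probe 2 was not run against them. Pearson's r with Tfrc probe 1 lay between -0.246 for Slc11a2 and 0.132 for Ireb2 (n = 40, group means subtracted, permutation test within groups, adjusted p = 0.459 and 0.917), and Spearman's rho was -0.256 and 0.17 (adjusted p = 0.432 and 0.701). Without the 2 arrays farthest from the median of Tfrc these values of r were -0.205 and 0.149. Neither Tfrc probe was called against weight at 3 weeks, later weight or blood glucose within groups (limma; 0.0% of all probes were called in each of these fits). Nor was either called against the slow fiber, erythroid, macrophage or endothelial score, fits in which 1.66%, 0.0401%, 7.44% and 5.53% of all probes were called. Per unit of slow fiber score, Tfrc changed by 0.01 ± 0.04 (-0.08 to 0.10, adjusted p = 0.978) at probe 1 and by -0.04 ± 0.04 (-0.12 to 0.05, adjusted p = 0.862) at probe 2. Per g of later weight it changed by 0.01 ± 0.02 and 0.02 ± 0.02. The erythroid score rested on Hba-a1 alone, since the other 5 erythroid markers on the array were dim, and Tfrc changed by -0.05 ± 0.09 and -0.02 ± 0.09 per unit of it.

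The genes most like Tfrc probe 1 over the 40 arrays, with group means subtracted, were Ptx3 (r = 0.73), Tmed9 (0.681), Lurap1l (0.644), Atad1 (0.62), Synpo2l (0.612) and Ephb1 (0.61). The most opposed were Slc4a8 (-0.646), Ypel3 (-0.623), Nos3 (-0.619) and Pde4d (-0.608). Of 8561 named genes compared, the middle 95% of probes had r between -0.40 and 0.41, and the points share the normalization and the array sets. The genes were picked by their r with probe 1, and with probe 2 every r was smaller in size. In the same order these were 0.657, 0.524, 0.56, 0.49, 0.507 and 0.594, and -0.622, -0.476, -0.453 and -0.499. Ephb1 and Slc4a8 were dim, with group means from 81.0 to 86.1 and from 93.2 to 96.2. Of the 6 most alike, Tmed9 and Lurap1l also had their highest mean in LF_HF, with LF_HF minus LF_LF differences of 0.13 and 0.23. Ptx3, Atad1, Synpo2l and Ephb1 had theirs in another group, and the Ptx3 difference was -0.11.

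Of 72 other genes of iron uptake, export, storage, heme synthesis and iron-sulfur cluster assembly, 63 were on the array and 51 were tested. Like the members, these lists were chosen with earlier results of these data known. Their shares and adjusted p-values are therefore a description and not independent evidence. In LF_HF minus LF_LF, 4 of the 51 rose and 0 fell (7.84%, where 2.4% of all tested probes rose and 4.18% were called in either direction), and the median difference of the 51 was 0.03, against -0.01 over all tested probes. The 4 were Alad and Alas1, enzymes of early heme synthesis, and Ciapin1 and Ciao2b, factors of cytosolic iron-sulfur cluster assembly. By list, 2 of 10 heme synthesis genes and 2 of 17 mitochondrial iron and iron-sulfur genes rose, and 0 of 9 uptake, 0 of 8 export and heme breakdown, and 0 of 7 storage and control genes did.

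Alad encodes the enzyme that joins aminolevulinic acid into porphobilinogen. It ran from 671.1 to 887.8 with a median of 762.9 in LF_HF and from 497.6 to 656.1 (median 636.7) in LF_LF. The share of all tested probes with ranges separated in this way was not counted. The Alad difference was 0.33 ± 0.06 (limma, adjusted p = 0.00258). In HF_HF it ran from 594.0 to 793.0 (median 689.8) and in HF_LF from 526.5 to 768.1 (median 577.1), and this difference of 0.23 ± 0.07 did not pass (adjusted p = 0.128). Alad thus had a higher mean in the HF-fed sons of both kinds of dam, and its interaction was -0.10 ± 0.09 (adjusted p = 0.923).

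Alas1, which makes aminolevulinic acid in non-erythroid cells, ran from 3187.6 to 4306.8 with a median of 3578.0 in LF_HF and from 2745.3 to 3509.5 with a median of 3098.8 in LF_LF. The groups overlapped and the difference was 0.21 ± 0.05 (adjusted p = 0.0252). In the sons of HF dams the difference was -0.03 ± 0.07 (adjusted p = 0.915), with medians of 3290.9 in HF_HF and 3542.3 in HF_LF. The interaction was -0.24 ± 0.09 and was not called (adjusted p = 0.908), so that a difference in the response to HF feeding between dams was not shown.

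Ciapin1, the electron carrier of the cytosolic iron-sulfur machinery, rose from a median of 286.5 in LF_LF (249.8 to 355.3) to 350.1 in LF_HF (288.7 to 423.2), a difference of 0.29 ± 0.07 (adjusted p = 0.0254). Ciao2b, part of the complex that targets clusters to cytosolic and nuclear proteins, rose from a median of 485.3 (361.7 to 539.6) to 554.2 (476.3 to 622.4), a difference of 0.24 ± 0.07 (adjusted p = 0.0414). HF_HF minus LF_HF was -0.20 ± 0.07 for Ciapin1 (adjusted p = 0.467) and -0.14 ± 0.05 for Ciao2b (adjusted p = 0.505), and neither passed. None of the 4 passed with the slow fiber score as a covariate, within the mixed cages, or without cage 11, but all 4 differences stayed above 0. For Alad, Alas1, Ciapin1 and Ciao2b they were 0.28, 0.20, 0.23 and 0.30 with the score, 0.33, 0.26, 0.32 and 0.19 in the mixed cages, and 0.30, 0.19, 0.25 and 0.24 without cage 11. With 1 animal or cage left out, the calls held in 25, 21, 19 and 7 of 26 fits, so that Ciao2b was the least stable. Ciao2b was also not called without a filter on dim probes (limma, adjusted p = 0.0803). The same held without the arrays high in lymphocyte or macrophage markers (limma, adjusted p = 0.125). The endothelial and adipocyte scores given beside Tfrc differ between the same groups, and their part in these 4 differences was not tested.

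**Figure D5:**
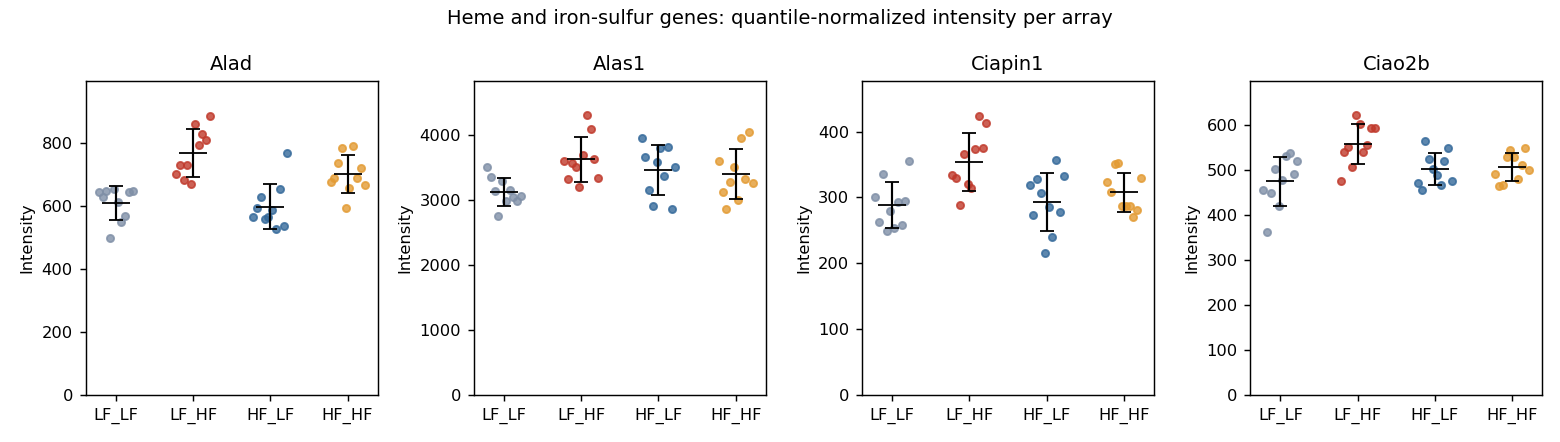
Quantile-normalized intensity (y axes, linear and starting at 0, each gene on its own scale) of the 4 genes called in LF_HF minus LF_LF, in each of the 10 arrays of the 4 groups (x axes); bars show the mean and SD. The LF_HF arrays of Alad lie between 671.1 and 887.8 and its LF_LF arrays between 497.6 and 656.1.

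In the other comparisons 0 of the 51 genes were called (limma), with 4 at an unadjusted p below 0.05 in HF_HF minus HF_LF, 7 in HF_LF minus LF_LF and 6 in HF_HF minus LF_HF. The lowest p-values in HF_HF minus HF_LF belonged to Alad and to Scara5, a receptor for ferritin, at -0.32 ± 0.12 (adjusted p = 0.293). Scara5 ran from 353.6 to 747.8 (median 529.5) in HF_HF and from 487.0 to 958.7 (median 622.5) in HF_LF. In HF_LF minus LF_LF they belonged to Scara5, at 0.31 ± 0.11 (adjusted p = 0.513), and to Bmp6, a signal of liver iron load, at 0.16 ± 0.07 (adjusted p = 0.563). The HF_LF group is shared by these comparisons. Bmp6 was dim, from 68.6 to 100.1 in HF_LF and from 64.3 to 86.4 in LF_LF, where array medians lay between 75.7 and 75.8.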

How the data were processed

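The authors quantile-normalized fluorescence over the 40 arrays and deposited linear probe intensities; BeadStudio is named in the submitters' processing notes without a version. The table carries no detection p-value. The 9 member probes were found by platform gene symbol (23978 of 25697 probes had 1 symbol). Intensities were taken as log2 without an offset, and a probe was tested where it exceeded its array's median in at least 20 of 40 arrays (12467 probes, 8 of the 9 members). Groups came from the diet labels. Each pair was fitted on its 20 arrays, and interactions and covariates on all 40, with limma 3.58.1 (lmFit, eBayes with intensity trend, R 4.3.3), Benjamini-Hochberg adjustment over tested probes and a threshold of 0.05. Cages were not modelled in these fits, so p-values, errors and intervals treat cagemates as independent. On simulated data for LF_HF minus LF_LF (12467 probes, 200 changed), 93.0% of changes of 0.5 and 99.0% of changes of 1 (log2) were recovered. Array sets lie either side of the widest gap along the leading principal component of 13230 dim probes. The weight filed in the labels as weaning weight was used as a later weight. The members and gene lists were chosen with earlier results of these data known. Named genes were all members, the other iron genes called in a comparison or, with none called, the 2 with the lowest p, and the 6 most and 4 least correlated with Tfrc probe 1. Sequences came from RefSeq promoter tables (GRCm38.p6). Alternatives are given in the closing section.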

Additional observations from a re-analysis of the deposited data

Results flagged for a closer look

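Fth1 probe 2 in HF_LF replicate 2 had an intensity of 16618.2, against 20601.6 in the next lowest array of its group and 25164.9 in the highest. The gap took 0.47 of the group's range, at the Dixon limit for 10 samples. This was 1 of 36 combinations of a probe and a group, and chance flags about 1 in 20.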

How the results depend on the processing

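Both Tfrc differences between LF_HF and LF_LF kept their sign under all alternatives, from 0.28 to 0.45 at probe 1 and from 0.42 to 0.59 at probe 2, and from 0.32 to 0.47 and from 0.38 to 0.54 when 1 animal or cage was left out. The calls were less stable. Both were lost without cage 11 and within the set of 17 arrays. Probe 1 was also lost with the slow fiber score, and probe 2 within the set of 23. In sons of HF dams the Tfrc differences moved to -0.351 and -0.246 in the mixed cages. The cause was not tested. The 521 probes called in LF_HF minus LF_LF became 319 without a filter, 108 in mixed cages, 112 with the slow fiber score, and 2 and 104 within the array sets (sets chosen for separate fits after seeing the data), and 59 (without cage 11) to 647 with 1 animal or cage left out. Without LF_LF replicate 4, cage 4 or cage 6 they were 337, 146 and 264. The 4 other iron genes became 2 without a filter, 0 in mixed cages, 2 without LF_LF replicates 2 and 5 and LF_HF replicate 6, 0 with the slow fiber score, 0 in each array set, and 0 to 4 with 1 animal or cage left out. They were 1 without LF_LF replicate 4, LF_HF replicate 8 or cage 4, and 2 without LF_HF replicate 10 or cage 6. The differences themselves stayed above 0, between 0.28 and 0.36 for Alad, 0.18 and 0.26 for Alas1, 0.23 and 0.43 for Ciapin1 and 0.16 and 0.30 for Ciao2b over these settings.

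The 45 probes called in HF_HF minus HF_LF became 29 without a filter, 85 with all 40 arrays, 19 in mixed cages, 69 with array set, 3 and 1 within sets, and 1 (without cage 23) to 63 with leave-outs, where the other iron genes called ranged from 0 to 1 (without HF_LF replicate 10). The 2 in HF_LF minus LF_LF became 1 without a filter, 6 with the stricter filter, 4 with cyclic loess, 9 with all arrays, 6 with cage as a random effect, 0 with array set, 4 without LF_LF replicates 2 and 5, 0 within each set, and 0 to 9 with leave-outs. The 0 in HF_HF minus LF_HF became 5 with all arrays and 0 to 4 with leave-outs. By replicate number, no paired analysis was possible because these numbers only name animals, and the mixed cages above are the fit that pairs animals by cage. Probes near background have compressed differences, so that small changes of Aco1, Ireb2 and Ftl1 were not detectable here.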

Other observations

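Other iron genes moved with marker scores within the diet groups. They were chosen after their values were seen. Of the 51 tested, 9.8% were called against the macrophage score and 11.8% against the endothelial score, where 7.44% and 5.53% of all tested probes were called. Against the erythroid score these shares were 1.96% (1 gene, Alas2) and 0.0401% (5 probes). The tested probes include Hba-a1, on which that score rests, so nothing is read from these shares. Alas2, the erythroid form of the first heme enzyme, rose with the erythroid score by 0.71 ± 0.06 per unit (limma, adjusted p = 1.1e-10), a score that rests on Hba-a1. With the macrophage score rose Blvrb by 0.58 ± 0.07 (adjusted p = 1.6e-07), Hmox1, the enzyme that opens heme, by 0.59 ± 0.10 (5.3e-05), Cd163, the receptor for hemoglobin with haptoglobin, by 0.64 ± 0.11 (5.9e-05), and the transferrin gene Trf by 1.07 ± 0.27 (0.00663). Hjv fell with the macrophage score (-0.28 ± 0.09, adjusted p = 0.0415). LF_HF replicate 6, which stood apart with a macrophage score of 1.36, is part of these fits. Neither Tfrc nor Slc40a1 was called against the macrophage score. With the endothelial score rose Scara5 by 1.06 ± 0.32 (adjusted p = 0.0447), Hif1a by 0.63 ± 0.18 (0.0324) and Epas1 by 0.59 ± 0.16 (0.0280). Nfu1, a mitochondrial cluster carrier, fell by 1.41 ± 0.39 (0.0294). Fech (-0.48 ± 0.13, 0.0297) and Hjv (-0.76 ± 0.23, 0.0447) fell as well. Nfu1 also differed between the array sets, by 0.36 ± 0.09 (adjusted p = 0.00154). That fit called 28.1% of all tested probes and 15.7% of the 51.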
